A study of Mus musculus with 32 samples.

Results

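Engulfment genes were followed through whole brain tissue and sorted macrophages of the mouse brain borders 1 day after stroke. The 10 genes are the apoptotic cell receptors Axl and Mertk, the bridging ligands Gas6, Pros1 and Mfge8, the activating Fc receptors Fcgr1, Fcgr3 and Fcgr4, the inhibitory Fc receptor Fcgr2b and the signalling chain Fcer1g. The genes were taken by name, and all 10 were found among the 33280 genes of each count table and passed the filter on low counts in both. The question was how RNA of this machinery differed between the hemispheres after stroke, and whether it differed between control mice and mice whose brain macrophages had been depleted and had repopulated.

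The 8 mice were adult wild-type C57BL/6JCrl animals of both sexes, and all 8 had a stroke. Each of the 4 CTL mice (A2, A3, A4 and B1) received vehicle, and each of the 4 BLZ945 mice (C2, C3, C4 and D1) received the CSF1R inhibitor BLZ945 at 200 mg per kg body weight, by oral gavage for 7 days. Stroke was induced 8 weeks later by injecting thrombin into the middle cerebral artery with the dura removed, and the lesioned (ipsilateral) and opposite (contralateral) hemispheres were collected 1 day afterwards. From each hemisphere, RNA of a whole tissue slice and of sdCAMs (subdural CNS-associated macrophages, that is leptomeningeal and perivascular macrophages) was sequenced, which gave 32 libraries. The sdCAMs were sorted, after removal of the choroid plexus, as CD206+ CD45+ CD11b+ cells without Ly6C, Ly6G or CD11c. Each library is labelled with 1 animal code, but the study's methods mention pooling the cells of a pair of BLZ945 mice in some sorts of its stroke experiment, and whether this holds for the BLZ945 sdCAM libraries is not stated. There was no group without stroke, so the contralateral hemisphere of the same animal was the reference, and effects of the stroke and of the surgery at the artery cannot be told apart. Hemispheres were compared as groups of libraries, and p-values reflect the spread between the libraries of these mice. The pairing of hemispheres within a mouse entered only in an alternative fit, called the replicate block below.

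Total counts on genes were 9288717 to 12781505 per tissue library and 7397393 to 11081409 per sdCAM library used. Levels are given as CPM (counts of a gene relative to the library total, scaled between libraries by TMM). A floor of 3 counts, for counting error alone, was equal to 0.234 to 0.321 CPM in tissue libraries and 0.253 to 0.389 CPM in sdCAM libraries. A gene was called at an adjusted p-value under 0.05 (edgeR quasi-likelihood test, Benjamini-Hochberg adjustment over all genes tested, two-sided). "Average" stands for the mean of the ipsilateral over contralateral differences of CTL and BLZ945 mice.

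Several libraries need care. The ipsilateral sdCAM libraries of A3 and C2, whose RNA the labels describe as degraded, had 54055 and 55155 counts and were left out, so ipsilateral sdCAM groups have 3 mice. The hemisphere of the A3 tissue libraries is named differently in the header of the tissue counts and in the labels. Library 19 was taken as ipsilateral, following the labels. With the hemispheres of A3 exchanged, none of the 10 genes was called in tissue in CTL mice, in BLZ945 mice or in the average, where only 1 gene was called among all genes. With A3 left out, 0 members were called in CTL mice, 3 in BLZ945 mice and 7 in the average. Of all 18946 genes then tested, 28 were called higher and 0 lower in CTL mice. In BLZ945 mice it was 205 and 9, and in the average 354 and 37. Tissue libraries carried neuronal, astrocytic and oligodendrocyte RNA and sdCAM identity genes at 6.47 to 16.6 summed CPM. In the sdCAM libraries the 8 identity genes (Mrc1, Cd163, Lyve1, Pf4, Ms4a7, Cbr2, Folr2 and Siglec1) summed to 1040 to 6382 CPM and were all detected in every library, and RNA of other brain cells was present too, as described below.

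Dying cells expose phosphatidylserine, which phagocytes recognise through bridging proteins. Gas6 couples it to the receptor tyrosine kinases Axl and Mertk, protein S (Pros1) couples it to Mertk and Tyro3, and Mfge8 couples it to alpha v integrins. Fc gamma receptors bind IgG on opsonised particles. Fcgr1 (high affinity), Fcgr3 and Fcgr4 signal through the ITAM of the common gamma chain Fcer1g, and Fcgr2b carries an inhibitory ITIM. In the brain these receptors are known mainly from microglia and border macrophages, whereas Mertk, Gas6 and Mfge8 are also made by astrocytes and other non-immune cells.

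The promoters of the 3 activating Fc receptor genes are shown because they carry the letters below close to the start and were higher in the ipsilateral tissue of 8 of 8 mice. The letters GAGGAA, the core bound by PU.1 and other ETS factors, were searched on both strands in the 250 bases before the start of each gene (RefSeq, GRCm38.p6, all 10 genes matched). They were present in Axl, Mfge8, Fcgr1, Fcgr3 and Fcgr4, that is 5 of 10, and in 23.3% of all 32851 promoters of this length. They were absent from Pros1, Fcgr2b and Fcer1g, which were also higher in 8 of 8 mice, and Axl and Mfge8, which hold them, were not called higher in tissue. Capitals mark TTCCTC, the complement of GAGGAA. The sequences run 5′ to 3′ on the strand of the gene:
Fcgr1: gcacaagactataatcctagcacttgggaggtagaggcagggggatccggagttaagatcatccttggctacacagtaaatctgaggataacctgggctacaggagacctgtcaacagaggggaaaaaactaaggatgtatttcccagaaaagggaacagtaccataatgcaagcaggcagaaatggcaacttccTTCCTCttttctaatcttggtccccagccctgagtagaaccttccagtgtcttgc
Fcgr3: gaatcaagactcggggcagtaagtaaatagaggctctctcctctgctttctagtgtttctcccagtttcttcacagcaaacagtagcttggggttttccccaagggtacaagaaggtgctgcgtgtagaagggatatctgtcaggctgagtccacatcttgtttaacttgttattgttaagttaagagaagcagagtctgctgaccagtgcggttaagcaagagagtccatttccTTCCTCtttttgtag
Fcgr4: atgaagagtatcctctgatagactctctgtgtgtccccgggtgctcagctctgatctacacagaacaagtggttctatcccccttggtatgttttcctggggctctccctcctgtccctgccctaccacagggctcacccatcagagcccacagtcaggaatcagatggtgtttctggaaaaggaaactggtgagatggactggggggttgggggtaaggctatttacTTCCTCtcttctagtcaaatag
The Fcgr1 sequence is chr3:96293970-96294219 (minus strand), the Fcgr3 sequence chr1:171059395-171059644 (minus strand) and the Fcgr4 sequence chr1:171018676-171018925 (plus strand). The match lies 49 bases before the start in Fcgr1, 9 in Fcgr3 and 16 in Fcgr4. RefSeq lists another Fcgr3 start, with the window chr1:171059404-171059653, in which the same match lies 0 bases before the start. Fcgr2b, Fcgr3, Fcgr4 and Fcer1g all lie on chromosome 1. The letters TTCNNNGAA, to which STAT factors bind, were found before Pros1 and Fcgr1, against 7.02% of all promoters, and TGAGTCA, the AP-1 site, before none of the 10, against 4.46%. These are letter matches only, and binding was not measured.

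In the contralateral hemisphere of CTL mice, Gas6 and Mfge8 were the most abundant members in tissue, and Fcer1g and Fcgr3 in sdCAMs. Per kilobase of merged exon (GENCODE M21), the mean tissue level was highest for Gas6 at 48.99 CPM per kb and Mfge8 at 34.1. The receptors Axl and Mertk followed at 13.1 and 12.9 CPM per kb and overlapped between mice. Fcer1g stood at 9.62 CPM per kb, Fcgr3 at 7.18, Pros1 at 3.54, Fcgr1 at 1.46, Fcgr2b at 0.661 and Fcgr4 at 0.0918. In tissue, then, all 5 Fc receptor genes had lower means than Gas6, Mfge8, Axl and Mertk, although Fcer1g overlapped with Mertk between mice. In sdCAMs the order began with Fcer1g at 1640.4 CPM per kb and Fcgr3 at 1192, which overlapped between mice and stood above all other members in every mouse. Gas6 followed at 209 CPM per kb. Pros1 (114), Fcgr2b (102), Fcgr1 (99.7), Mertk (92.4) and Mfge8 (78.5) overlapped with their neighbours, as did Axl (46.9), and Fcgr4 (20.5) lay below all others in every mouse.

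All 10 members were higher in contralateral sdCAMs than in contralateral tissue when both tables were fitted together over both treatments, where 33.2% of all 19389 genes tested were higher. The log2 fold changes were largest for Fcgr4 (7.27 ± 0.39 (SE)), Fcer1g (7.14 ± 0.16 (SE)), Fcgr2b (7.03 ± 0.26 (SE)), Fcgr3 (6.996 ± 0.16 (SE)) and Fcgr1 (5.84 ± 0.22 (SE)). Pros1 stood between, at 4.83 ± 0.15 (SE). Mertk (2.37 ± 0.18 (SE)), Axl (2.07 ± 0.16 (SE)) and Gas6 (1.95 ± 0.20 (SE)) differed less, and Mfge8 least (1.24 ± 0.24 (SE)). The 5 Fc receptor genes were thus 57.2 to 154 times as abundant in the sort, and the 5 apoptotic cell genes 2.36 to 28.5 times. The value of 154 is that of Fcgr4 and is not exact. Its contralateral tissue libraries held 0 to 3 counts in CTL and 3 to 8 in BLZ945 mice, at or near the floor. The RNA of sorted cells was amplified, and for tissue only the extraction is described, so preparation and compartment cannot be told apart. In the same fit 8 microglial (median log2 fold change 5.74), 7 endothelial (2.97) and 8 neutrophil genes (9.82) were also called higher in the sort. The 8 sdCAM identity genes had a median of 8.20, and 6 astrocyte, 6 oligodendrocyte and 8 neuronal genes were called lower. The part of other cells in the levels of the members was not tested.

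In whole tissue, Pros1 and the 5 Fc receptor genes rose on the side of the stroke, Mfge8 fell, and Axl, Mertk and Gas6 did not pass the test. In the average of both treatments, 6 of the 10 members were called higher and 1 lower, where 2.53% of all 18968 genes tested were called higher and 0.517% lower. The median log2 fold change was 0.65 for the 10 members and -0.01 for all genes. In bulk tissue, more cells of a type and more RNA per cell cannot be told apart.

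Pros1, a ligand of Mertk and Tyro3, was the only bridging ligand of the 3 to pass the test with a higher level. Its contralateral levels were 13.9, 15.9, 12.4 and 15.7 CPM in CTL mice A2, A3, A4 and B1, and the ipsilateral levels of the same mice were 19.99, 25.2, 18.7 and 22.7 CPM. In BLZ945 mice C2, C3, C4 and D1 they were 14.2, 11.8, 13.6 and 15.9 CPM contralaterally and 31.3, 20.3, 21.4 and 23.9 CPM ipsilaterally. Every ipsilateral library lay above every contralateral one. The average log2 fold change was 0.69 ± 0.10 (SE), or 1.61-fold (adjusted p = 0.000695). The gene was called in BLZ945 mice (0.80 ± 0.15 (SE), adjusted p = 0.00777) and not in CTL mice (0.58 ± 0.15 (SE), adjusted p = 0.131). With the mouse as a replicate block it was also called in CTL mice (adjusted p = 0.00731).

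Mfge8, the integrin-binding ligand, went the other way. In CTL mice it was read at 173, 151, 183 and 133 CPM contralaterally and 92.5, 146, 158 and 107 CPM ipsilaterally. In BLZ945 mice the levels were 152, 178, 186 and 167 CPM and 105, 132, 112 and 132 CPM. The ipsilateral level was the lower in 8 of 8 mice, although the groups overlapped in CTL mice. The average log2 fold change was -0.43 ± 0.10 (SE) (adjusted p = 0.0302), and this call was lost without A2, B1, C2, C3, C4 or D1, with adjusted p up to 0.130.

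Gas6 did not pass the test: it ranged from 99.7 to 153 CPM ipsilaterally and from 106 to 143 CPM contralaterally, with an average log2 fold change of -0.029 ± 0.10 (SE). Of the receptors, Axl ranged from 55.8 to 71.0 CPM ipsilaterally and from 50.0 to 74.3 CPM contralaterally (-0.051 ± 0.080 (SE)). For both genes the sign of this value changed when single mice were left out. Mertk was lower ipsilaterally in 8 of 8 mice, at 32.9 to 59.7 CPM against 43.6 to 86.0 CPM. Its average log2 fold change of -0.37 ± 0.13 (SE) was not called (adjusted p = 0.175). With the replicate block it was called in the average (adjusted p = 0.00133) and in BLZ945 mice (adjusted p = 0.00988).

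Among the activating Fc receptors, Fcgr4, which binds IgG2a and IgG2b, changed most and was the rarest. It was represented by 0, 3, 2 and 0 counts in contralateral and 12, 17, 11 and 22 counts in ipsilateral tissue of CTL mice. In BLZ945 mice the counts were 3, 4, 4 and 8 contralaterally and 38, 10, 22 and 32 ipsilaterally. No ipsilateral library overlapped with a contralateral one in CPM, but all 4 contralateral CTL libraries were at or under the floor of 3 counts. The summed ipsilateral counts were 11.6 times the contralateral ones in CTL mice after scaling (62 against 5 counts, exact 95% interval for counting error 4.72 to 37.0) and 5.40 times in BLZ945 mice (102 against 19 counts, 3.29 to 9.34). The gene was called in CTL mice (log2 fold change 3.40 ± 0.66 (SE), adjusted p = 0.0270, and 4.10 without A3, where the call was lost), in BLZ945 mice (2.40 ± 0.53 (SE), adjusted p = 0.0286) and in the average (2.90 ± 0.42 (SE), adjusted p = 0.000566).

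Fcgr1, the high-affinity IgG receptor, was read at 4.91, 2.46, 3.71 and 3.98 CPM contralaterally and 6.32, 7.89, 5.92 and 8.40 CPM ipsilaterally in CTL mice. In BLZ945 mice it was read at 6.54, 4.39, 4.84 and 2.34 CPM and 11.6, 7.12, 8.41 and 7.89 CPM. It was higher ipsilaterally in every mouse, with a contralateral level in C2 that reached into the ipsilateral range. The average log2 fold change was 0.94 ± 0.19 (SE) (adjusted p = 0.00907).

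Fcgr3, the low-affinity activating receptor, was read at 14.03, 14.96, 10.7 and 10.2 CPM contralaterally and 14.5, 27.01, 19.7 and 19.2 CPM ipsilaterally in CTL mice. The BLZ945 levels were 14.2, 12.5, 13.8 and 12.8 CPM and 23.2, 17.4, 16.2 and 20.7 CPM. Mouse A2 was almost level between its hemispheres and the other 7 mice were higher ipsilaterally by a wider margin. The average log2 fold change was 0.61 ± 0.12 (SE) (adjusted p = 0.00903).

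The inhibitory receptor Fcgr2b moved in the same direction as the activating ones. Its levels were 3.41, 3.99, 4.95 and 2.96 CPM contralaterally and 5.15, 9.78, 6.10 and 9.23 CPM ipsilaterally in CTL mice, and 4.18, 3.14, 4.84 and 4.12 CPM and 10.3, 3.91, 11.1 and 9.69 CPM in BLZ945 mice. Mouse C3 was the lowest on the ipsilateral side and within the contralateral range. The average log2 fold change was 1.04 ± 0.21 (SE) (adjusted p = 0.00809). Of the 50-base words in its transcripts, 4.38% also occur in other genes, Fcgr3 among them, and 9.58% of those of Fcgr3 occur in Fcgr2b. How reads with several matches were counted is not given in the sources used here, so a part of the reads of these 2 genes could be exchanged or lost.

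Fcer1g, the gamma chain on which the activating receptors depend, was, with Fcgr4, called in CTL mice, in BLZ945 mice and in the average. It was read at 9.04, 9.09, 6.81 and 8.69 CPM contralaterally and 13.4, 14.8, 12.6 and 15.7 CPM ipsilaterally in CTL mice. In BLZ945 mice it was read at 8.36, 9.20, 11.4 and 8.71 CPM and 20.6, 14.3, 12.7 and 15.6 CPM. The hemispheres did not overlap over the 16 libraries. The log2 fold change was 0.75 ± 0.16 (SE) in CTL mice (adjusted p = 0.0445), 0.74 ± 0.16 (SE) in BLZ945 mice (adjusted p = 0.0231) and 0.75 ± 0.11 (SE) in the average (adjusted p = 0.000698).

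**Figure D1:**
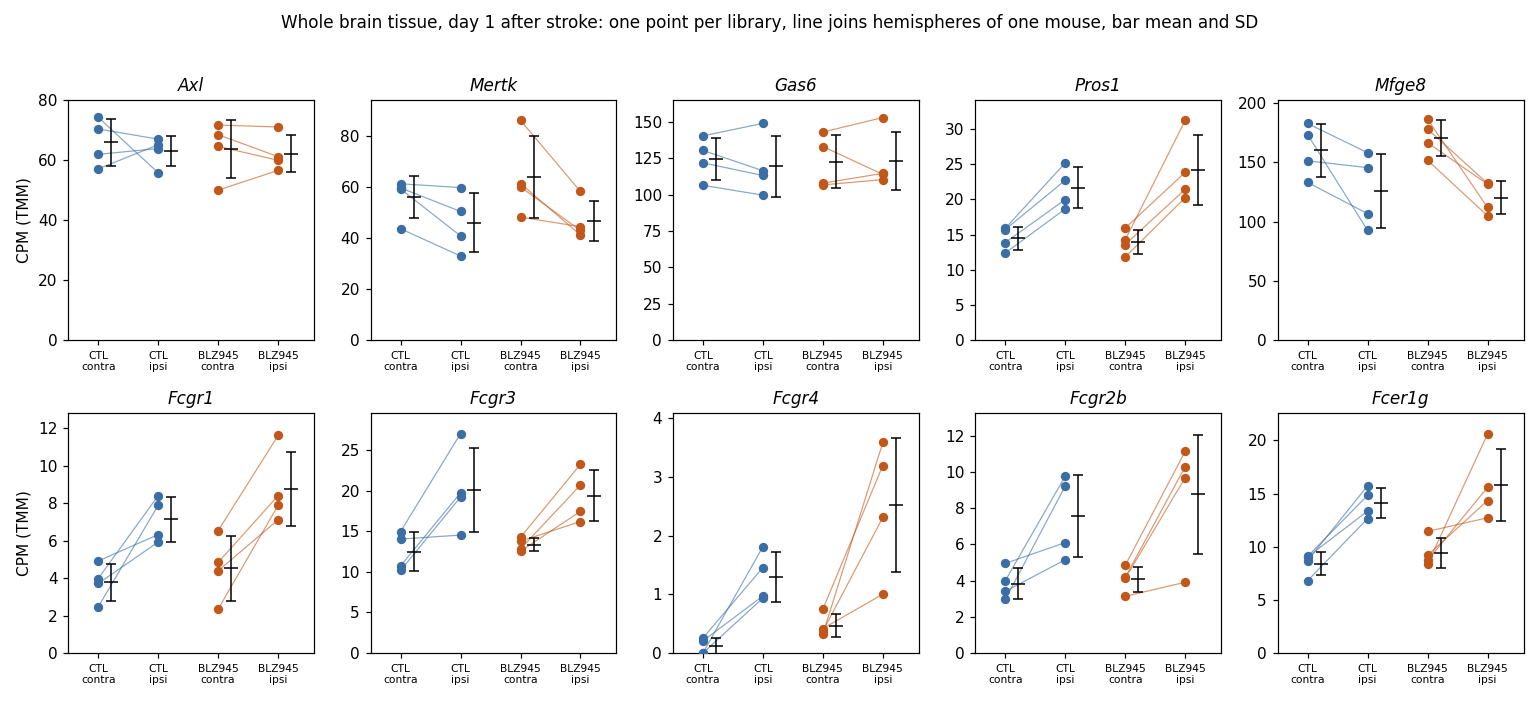
Level of each of the 10 genes in CPM in every tissue library, with lines joining the hemispheres of a mouse, and the mean with its SD beside each group of 4. Pros1, Fcgr4 and Fcer1g separate the hemispheres without overlap, Mfge8 and Mertk fall in every mouse, and Axl and Gas6 show no common direction.

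Counted by treatment, 2 members were called higher in CTL tissue (Fcgr4 and Fcer1g) and 3 in BLZ945 tissue (those 2 and Pros1), and none was called lower. Of all genes tested, 0.485% were called higher and 0.00527% lower in CTL mice, and 1.26% and 0.1% in BLZ945 mice. With the replicate block, Pros1, Fcgr1, Fcgr3 and Fcgr2b were called higher in CTL mice as well, which made 6, and in BLZ945 mice Fcgr1, Fcgr3 and Fcgr2b were called higher and Mertk and Mfge8 lower, which made 6 and 2. The block also called more of all genes, at 1.14% higher and 0.179% lower in CTL mice, 2.69% and 1.45% in BLZ945 mice, and 4.06% and 3.02% in the average. Calls within one treatment depended on single mice. Among all genes, 24 to 96 were called in CTL and 81 to 261 in BLZ945 tissue when 1 mouse was left out. The CTL count fell to 0 without any one of A2, A3, A4 or B1 and to 1 without C3 or D1 (which share the estimate of the spread). The BLZ945 count fell to 0 without C2, 1 without D1 and 2 without C4, and without C3 it stayed at 3, with Fcer1g lost and Fcgr2b gained. Pros1 in BLZ945 mice was lost only without C2. In the average, Pros1, Fcgr1, Fcgr3, Fcgr4 and Fcer1g were called whichever mouse was left out, and Fcgr2b was lost only without B1 (adjusted p = 0.0527).

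Other genes of both pathways moved with the members in tissue in part. Their lists were chosen for their function, but with earlier results of these data known. Of 33 further engulfment genes tested, 7 rose and none fell in the average (median log2 fold change 0.11, against -0.0091 over all genes), where 2.53% of all genes rose and 0.517% fell. They were the scavenger receptor Stab1 (0.45), the phosphatidylserine receptor Cd300lf (1.98), the integrin-binding protein Thbs1 (2.93), the Rac activator Dock2 (0.73), the GTPase Rac2 (1.04), the nucleotide receptor P2ry6 (1.11) and the cytokine feedback gene Socs3 (2.68). Of 25 genes of Fc receptor signalling tested, 10 rose and none fell (median 0.35), beside the same shares of all genes. Among them were the ITAM adaptor Tyrobp (0.47), the kinase Lyn (0.59), the exchange factor Vav1 (1.06), the adaptor Lat2 (1.04) and the phosphatase Ptpn6 (0.89). The kinase Fgr rose from 0 to 3 contralateral counts per library, with a mean of 0.147 CPM, to a mean of 1.21 CPM. C-type lectins rose too: Clec4n had 0 to 4 contralateral counts per library (mean 0.0889 CPM) and a mean of 1.22 CPM ipsilaterally, Clec4d had at most 1 contralateral count in any library, and Clec4e had none and was at least 3.18-fold higher ipsilaterally against the floor of 3 counts per library. In CTL mice 2 engulfment genes (P2ry6 and Socs3) and 2 signalling genes (Tyrobp and Vav1) rose. In BLZ945 mice 5 (Dock2, P2ry6, Socs3, Stab1 and Thbs1) and 4 (Clec4n, Ptpn6, Tyrobp and Vav1) did. Of all genes, 0.485% rose in CTL and 1.26% in BLZ945 mice.

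Markers of leukocytes and glia differed between the hemispheres of tissue as well. Of 8 monocyte genes Fn1 (0.91) and Plac8 rose, the latter from a mean of 0.0597 CPM contralaterally to 0.438 CPM ipsilaterally, and the summed level of the list was 80.3 to 110 CPM contralaterally and 131 to 229 CPM ipsilaterally, with Fn1 the most abundant. Of 5 neutrophil genes tested S100a9 and Cxcr2 rose. S100a9 had a mean of 0.0914 CPM contralaterally and 1.35 CPM ipsilaterally, and Cxcr2 had 0 counts in every contralateral library and a mean of 0.418 CPM ipsilaterally. The neutrophil marker Ly6g was at 0 in 15 of 16 libraries. Of 8 microglial genes P2ry12 fell by 0.70 and Siglech by 0.66 on the log2 scale and none rose, and their sum, led by Sparc, was 402 to 1010 CPM contralaterally and 414 to 940 CPM ipsilaterally. None of the 8 sdCAM identity genes was called, with summed levels of 6.47 to 10.8 CPM and 7.50 to 16.6 CPM. The astrocyte gene Gfap (1.71) and the endothelial genes Pecam1 (0.66) and Cdh5 (0.76) rose, and no neuronal, oligodendrocyte, lymphocyte, red blood cell or choroid plexus gene was called. The part of these cells in the change of the members was not tested.

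In sorted sdCAMs the result depended on how the libraries were scaled, except for Mfge8. With TMM, 5 members were called higher on the side of the stroke in the average (Pros1, Fcgr3, Fcgr4, Fcgr2b and Fcer1g) and Mfge8 lower, where 4.98% of all 18297 genes tested were called higher and 11.2% lower (912 and 2054 genes). The median log2 fold change was 0.58 for the members and -0.16 for all genes. When the libraries were scaled to the summed counts of the 8 sdCAM identity genes instead, a choice made after the data were seen, the average of all 9 other members turned to between -0.64 and -0.013 and none of them was called, while Mfge8 was called at -4.06. Among all genes, 11 were then called higher (0.0601%) and 7504 lower (41%). That scaling moved the median of all genes to -1.33 and the median of the members to -0.50 and shifts every gene of a library alike.

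The reason to look at the scaling was the markers. With TMM, 7 of the 8 identity genes were called higher ipsilaterally (median log2 fold change 0.99), from Ms4a7 at 0.76 to Cd163 at 1.16, and their sum, led by Mrc1, was 1040 to 4313 CPM contralaterally and 3114 to 6382 CPM ipsilaterally. All 8 endothelial genes were called lower (median -4.31), and their sum, led by Itm2a, was 1370 to 5128 CPM contralaterally against 75.4 to 286 CPM ipsilaterally. All 8 oligodendrocyte genes, 6 of 8 astrocyte genes, 3 of 8 neuronal genes, 3 of 5 choroid plexus genes and 2 of 3 red blood cell genes tested were also called lower, with Ttr at up to 36042 CPM in contralateral C4. Microglial genes were abundant on both sides (7754 to 20629 CPM contralaterally and 10941 to 29769 CPM ipsilaterally), and Olfml3 (0.67) was among those called higher. No neutrophil, monocyte, T cell or B cell gene was called, and Ly6g was at 0 in 9 of 14 libraries. How far RNA of these other cells accounts for the level of each member was not tested.

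Mfge8 was the member with the largest difference. Its levels were 286, 540.5, 461 and 186 CPM in contralateral sdCAMs of A2, A3, A4 and B1 and 62.1, 120.4 and 46.1 CPM in ipsilateral sdCAMs of A2, A4 and B1. In BLZ945 mice they were 370.4, 484, 894 and 219 CPM in contralateral C2, C3, C4 and D1 and 61.5, 63.3 and 48.8 CPM in ipsilateral C3, C4 and D1. The hemispheres did not overlap, and all 6 mice with both libraries were lower ipsilaterally. The log2 fold change was -2.27 ± 0.48 (SE) in CTL mice (adjusted p = 0.0208), -3.09 ± 0.50 (SE) in BLZ945 mice (adjusted p = 0.00331) and -2.68 ± 0.34 (SE), or 6.41-fold lower, in the average (adjusted p = 0.000179). The call in CTL mice was lost without A2, A3 or B1, at adjusted p of 0.0892, 0.0696 and 0.0523. The contralateral libraries with the most endothelial RNA (A3, A4, C3 and C4) were also those with the most Mfge8. Oligodendrocyte, astrocyte and choroid plexus genes were lower ipsilaterally too, and the part of any of these cells in the Mfge8 difference was not tested.

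**Figure D2:**
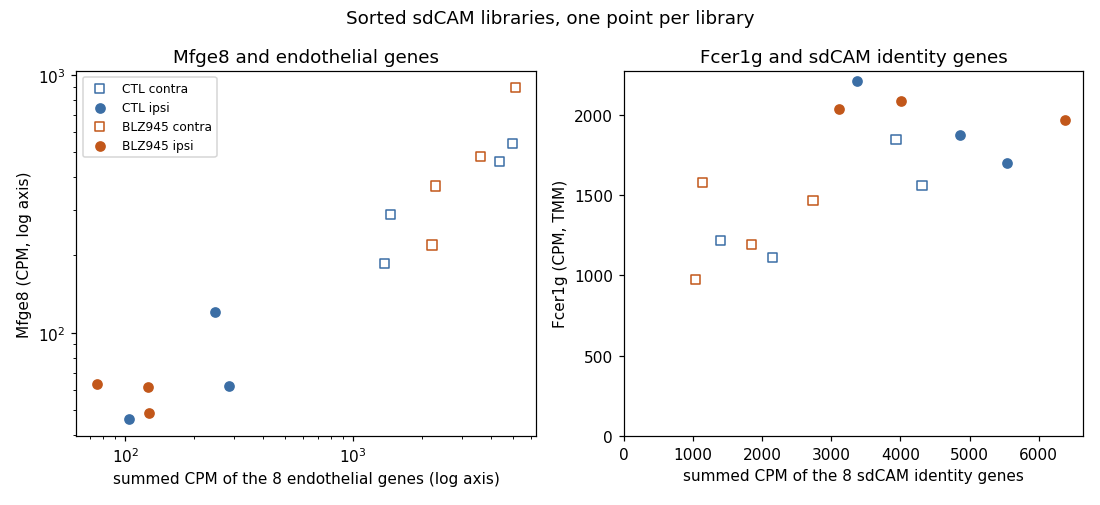
One point per sdCAM library: on the left Mfge8 against the summed level of the 8 endothelial genes, both in CPM on log axes, and on the right Fcer1g against the summed level of the 8 sdCAM identity genes in CPM on linear axes. Contralateral libraries (open squares) lie at 1370 to 5128 CPM of endothelial RNA and 186 to 894 CPM of Mfge8, ipsilateral ones (filled circles) at 75.4 to 286 and 46.1 to 120, and ipsilateral libraries also reach higher levels of the identity genes. Genes of other cell types that were lower ipsilaterally are not plotted.

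Of the other ligands, Pros1 was read at 516, 423, 458 and 469.7 CPM contralaterally and 555, 843 and 836 CPM ipsilaterally in CTL mice. In BLZ945 mice it was read at 513, 449, 317 and 372 CPM and 802, 1006 and 601 CPM. Every ipsilateral library lay above every contralateral one. With TMM the average log2 fold change was 0.82 ± 0.16 (SE) (adjusted p = 0.00266), and with the identity genes it was -0.35. In BLZ945 mice it was 0.96 ± 0.22 (SE) (adjusted p = 0.0197), a call lost without C3 or C4, and in CTL mice 0.67 ± 0.22 (SE) (adjusted p = 0.115). Gas6 ranged from 244 to 826 CPM contralaterally and from 480 to 1054 CPM ipsilaterally, was higher ipsilaterally in 3 of 6 mice and did not pass the test (0.57 ± 0.25 (SE) with TMM and -0.54 with the identity genes).

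The receptors Axl and Mertk did not pass the test in the average either, and both changed direction with the scaling. Axl stood at 0.43 ± 0.21 (SE) with TMM (adjusted p = 0.165) and -0.64 with the identity genes. Mertk stood at 0.59 ± 0.20 (SE) (adjusted p = 0.0553) and -0.47. The TMM value of Mertk was called when A2 was left out (0.75, adjusted p = 0.0291). Mertk ranged from 165 to 509 CPM contralaterally and from 381 to 711 CPM ipsilaterally.

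Among the Fc receptor genes, Fcgr3 had the smallest error of its average difference. In CTL mice it was read at 2297, 1892, 1919 and 2165 CPM contralaterally and 2845, 3423 and 2545 CPM ipsilaterally, and in BLZ945 mice at 1583, 1669.5, 1235 and 1719 CPM and 2798, 2980.3 and 2387 CPM. The hemispheres did not overlap. The average log2 fold change was 0.66 ± 0.12 (SE) with TMM (adjusted p = 0.00267) and -0.46 with the identity genes. It was called in BLZ945 mice (0.81 ± 0.18 (SE), adjusted p = 0.0158), but not with the replicate block (adjusted p = 0.0679) or without C3 or C4.

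Fcgr2b was read at 639, 415, 469 and 831 CPM contralaterally and 941, 884 and 1160.1 CPM ipsilaterally in CTL mice. The BLZ945 levels were 548, 519, 295 and 779 CPM and 863, 889 and 1094 CPM, again without overlap of the hemispheres. The average was 0.79 ± 0.20 (SE) with TMM (adjusted p = 0.0161) and -0.27 with the identity genes. With the replicate block the gene was also called in BLZ945 mice (adjusted p = 0.0485).

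Fcgr4 had the widest spread. In CTL mice it was read at 24.1, 23.6, 27.5 and 27.6 CPM contralaterally and 132, 36.1 and 58.2 CPM ipsilaterally, where mouse A2 stood highest. In BLZ945 mice it was read at 67.5, 49.6, 52.2 and 89.3 CPM and 101, 99.7 and 73.8 CPM, and here the hemispheres overlapped. It was called in CTL mice (1.55 ± 0.35 (SE), adjusted p = 0.0291), but not without A2 (0.86, adjusted p = 0.208), A3 or B1 or with the replicate block (1.30, adjusted p = 0.178). In BLZ945 mice it was not called (0.50 ± 0.35 (SE), adjusted p = 0.410). The average was 1.03 ± 0.25 (SE) with TMM (adjusted p = 0.0111, lost without C3 at adjusted p = 0.0518 and with the replicate block at adjusted p = 0.0620) and -0.013 with the identity genes.

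Fcer1g was read at 1846, 1219, 1110.0 and 1560.4 CPM contralaterally and 2212, 1874 and 1702 CPM ipsilaterally in CTL mice, and at 1577, 1193, 973 and 1468 CPM and 2038, 2086 and 1968 CPM in BLZ945 mice. It was higher ipsilaterally in 6 of 6 mice, with overlap between CTL groups only. The average was 0.53 ± 0.15 (SE) with TMM (adjusted p = 0.0247, lost without A4, C3 or C4) and -0.56 with the identity genes. Fcgr1 stood at 0.55 ± 0.18 (SE) and -0.53, with 157 to 364 CPM contralaterally and 317 to 410 CPM ipsilaterally. Its TMM value was not called (adjusted p = 0.0502), but it was with the replicate block (adjusted p = 0.0448) and without D1 (adjusted p = 0.0299).

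**Figure D3:**
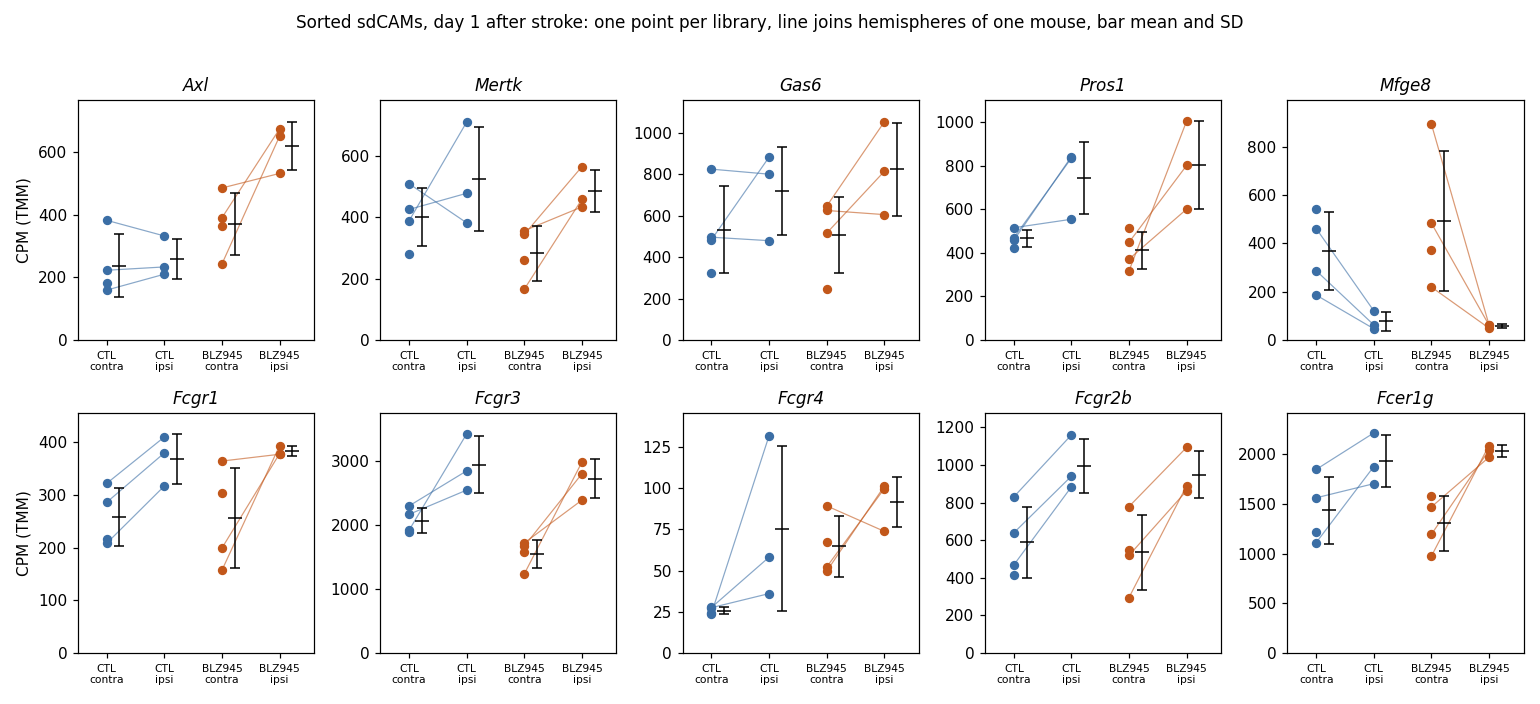
Level of each of the 10 genes in CPM (TMM) in every sdCAM library used, with lines joining the hemispheres of a mouse and the mean with its SD beside each group of 3 or 4. On this scale Mfge8 falls in all 6 mice with both libraries and Pros1, Fcgr3 and Fcgr2b separate the hemispheres without overlap, whereas with scaling to the sdCAM identity genes the averages of Pros1, Fcgr3 and Fcgr2b are below 0.

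By treatment and with TMM, 1 member rose (Fcgr4) and 1 fell (Mfge8) in CTL sdCAMs, where 0.426% of all genes were called higher and 2.36% lower. In BLZ945 sdCAMs 2 rose (Pros1 and Fcgr3) and 1 fell (Mfge8), against 1.2% higher and 4.41% lower. With the identity genes, Mfge8 alone was called in each, and no call was higher. With the replicate block, 0.126% of all genes were called higher and 1.48% lower in CTL sdCAMs, 1.46% and 3.73% in BLZ945 sdCAMs, and 3.5% and 7.06% in the average. With all 16 libraries, including those of degraded RNA, no member was called in CTL mice, and Mfge8 alone was called in BLZ945 mice and in the average.

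**Figure D4:**
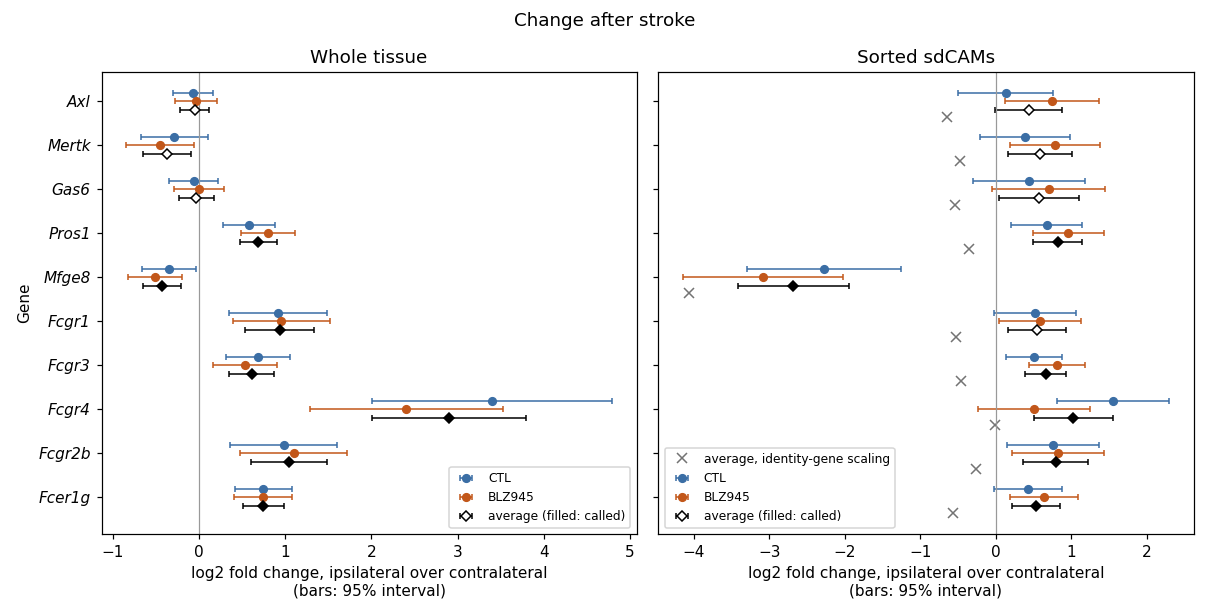
Log2 fold change of ipsilateral over contralateral for each gene in tissue (left) and sdCAMs (right), for CTL mice, BLZ945 mice and their average, with 95% intervals and filled diamonds for called averages; crosses give the sdCAM average after scaling to the identity genes. In tissue Pros1 and the Fc receptor genes lie to the right of 0 in both treatments, while in sdCAMs all crosses lie at or below 0 and Mfge8 lies far below 0 under both scalings.

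The calls on the pathway lists in sdCAMs also depended on the scaling. With TMM, 10 of 35 further engulfment genes rose and 3 fell in the average (median log2 fold change 0.30, against -0.16 over all genes), where 4.98% of all genes rose and 11.2% fell, so the share that fell was below that of all genes. Those that rose were the sheddases Adam10 (0.75) and Adam17 (0.94), the eat-me protein Calr (0.72), the scavenger receptor Cd36 (1.15), the Rac activators Dock2 (0.86) and Elmo1 (0.66), the integrin chains Itgav (0.65) and Itgb5 (0.66), P2ry6 (0.88) and the CD47 receptor Sirpa (0.79). The genes that fell were Tyro3, the third receptor of the Axl and Mertk family, and Megf10 and Gulp1, an engulfment receptor of astrocytes and an adaptor. Tyro3 had 36 to 147 counts in contralateral libraries and 0 in every ipsilateral one, so it was at least 23.4-fold lower against the floor of 3 counts per library. Megf10 had 4 to 161 contralateral and 0 or 1 ipsilateral counts, and Gulp1 4 to 621 and 0 to 40. Of 27 Fc signalling genes, 10 rose and none fell (median 0.48), among them Lyn (0.84), Plcg2 (0.96), Vav1 (1.03), Vav3 (1.39) and Inpp5d (0.94), with Ptpn6, Btk, Pik3cd and Lat2 between 0.62 and 0.71. By treatment, no engulfment gene rose and Tyro3 and Megf10 fell in CTL mice, and 5 rose and 3 fell in BLZ945 mice, while Vav1 rose in CTL and Inpp5d, Lyn and Vav1 in BLZ945 mice. Of all genes, 0.426% rose and 2.36% fell in CTL mice, and 1.2% rose and 4.41% fell in BLZ945 mice. Scaled to the identity genes, none of either list was called higher in the average, where 0.0601% of all genes were, and 11 engulfment and 2 Fc signalling genes were called lower, where 41% of all genes were, a smaller share of each list than of all genes.

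BLZ945 and CTL mice were then compared within each hemisphere. In tissue edgeR called no gene in either hemisphere or in the interaction (the difference between the stroke responses of the treatments), so the share called was 0% in each. DESeq2 called 1 gene, lower in ipsilateral BLZ945 tissue and not a member, and none in the other 2. At an unadjusted p under 0.05 edgeR gave 858 genes ipsilaterally, 616 contralaterally and 386 for the interaction, and of the members only Fcgr4 contralaterally. Fcgr4 was also the only member whose treatment groups did not overlap in a hemisphere of tissue, where 2.37% of all genes separated contralaterally and 2.26% ipsilaterally. Its 3 to 8 contralateral counts in BLZ945 mice lay above 0 to 3 in CTL mice after scaling, for a log2 fold change of 1.96 ± 0.74 (SE) (edgeR adjusted p = 1), a value that rests on 19 counts against 5 and was 2.72 without A3. Ipsilaterally the difference was 0.96 ± 0.47 (SE) (adjusted p = 0.958). The other 9 members differed between treatments by -0.065 to 0.30 on the log2 scale in tissue. The interaction was -0.998 ± 0.85 (SE) for Fcgr4, with a 95% interval from -2.79 to 0.80. Without A3 it was -1.70, and with the hemispheres of A3 exchanged it turned to 1.18. It was between -0.17 and 0.22 for the others.

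In sdCAMs edgeR likewise called no gene between the treatments (0% ipsilaterally, contralaterally and for the interaction), with 1034, 1133 and 912 genes at an unadjusted p under 0.05. Axl, a receptor known to be raised in inflamed macrophages, did not pass this test but separated the treatments ipsilaterally. Its ipsilateral levels were 209.9, 233 and 332 CPM in CTL and 674, 651 and 532 CPM in BLZ945 mice, without overlap. The contralateral levels were 159, 181, 223 and 382 CPM and 364, 390.3, 243 and 486 CPM and overlapped, with B1 among the BLZ945 values. The ipsilateral log2 fold change was 1.26 ± 0.32 (SE), or 2.40-fold (edgeR adjusted p = 0.523), and the contralateral one 0.65 ± 0.27 (SE) (adjusted p = 0.759). DESeq2 called the ipsilateral difference (1.27, adjusted p = 0.0128), where it called 0.208% of all genes higher, and with the identity genes the values were 1.44 and 1.38. That scaling moved the median of all genes to 0.032 ipsilaterally and 0.70 contralaterally. The paper names Cd163, Lyve1 and Folr2, which are among the identity genes, as marks of sdCAMs of yolk sac rather than blood stem cell origin. Among all genes, 6.65% did not overlap between the treatments ipsilaterally, and among the 10 members this held for Axl only, which is near that share. Oligodendrocyte sums over 8 genes did not overlap either, at 335, 817 and 595 CPM in A2, A4 and B1 and 303, 228 and 313 CPM in C3, C4 and D1. The median log2 difference was -1.08 for the oligodendrocyte, -1.12 for the astrocyte, -0.96 for the endothelial and -2.22 for the neuronal genes. It was 1.61 for the choroid plexus and 0.67 for the red blood cell genes. The medians of the other marker lists ran from -0.40 (microglial) to 0.42 (neutrophil). None of these genes was called, and the part of these cell types in the Axl difference was not tested.

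Contralaterally 2 members did not overlap between the treatments, where 3.25% of all genes did not. The BLZ945 levels of Fcgr4 given above lay over the CTL levels, with a log2 difference of 1.33 ± 0.33 (SE) or 2.51-fold (adjusted p = 0.759 by edgeR, and 0.0456 by DESeq2, which called 0.191% of all genes higher). With the identity genes, which moved the contralateral median of all genes to 0.70, the difference was 1.999. Ipsilaterally it was 0.28 ± 0.37 (SE), and the interaction was -1.05 ± 0.50 (SE), with a 95% interval from -2.11 to 0.0083 and adjusted p = 0.992. Without A2 these values were 0.95 and -0.36. Neutrophil and monocyte genes were also higher in contralateral sdCAMs of C2, C4 and D1: the neutrophil sums were 2134, 3273 and 2398 CPM, against 283 in C3 and 338 to 846 in CTL mice, and the monocyte sums were 1563, 838 and 1524 CPM, against 263 in C3 and 255 to 366 in CTL mice. Microglial sums (8 genes, all detected in each library) were lower in contralateral BLZ945 sdCAMs, at 12195, 14365, 7754 and 9616 CPM in C2, C3, C4 and D1, than in CTL mice, at 20629, 17038, 18618 and 14872 CPM in A2, A3, A4 and B1, and the groups did not overlap. The median log2 difference was -0.70 for the microglial genes and -0.66 for the 8 sdCAM identity genes, with none called. Choroid plexus sums, led by Ttr, were 1421, 20264, 37595 and 5404 CPM in the 4 BLZ945 libraries and 24.5, 262, 9048 and 88.7 CPM in the CTL libraries, which overlapped. The levels of Fcgr3 in contralateral BLZ945 sdCAMs lay below those in CTL mice with TMM (-0.41 ± 0.16 (SE), edgeR adjusted p = 0.759) and turned to 0.30 with the identity genes. The part of these other cell types in the Fcgr4 and Fcgr3 differences was not tested. The interactions of the other 8 members ranged from -0.81 (Mfge8, 95% interval -2.15 to 0.52) to 0.61 (Axl, -0.28 to 1.498).

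As a description, the genes whose log2 CPM followed a member most closely over the libraries were listed for the 3 members with the smallest p in each table. All of these correlations run over libraries that differ by hemisphere. Over the 16 tissue libraries and 14316 genes, Fcgr4 was followed by Fn1 (Pearson r 0.957), Mmp3 (0.953) and Clic1 (0.950), Pros1 by Pdpn (0.967), Tpm4 (0.961) and Ifitm3 (0.961), and Fcer1g by its fellow ITAM adaptor Tyrobp (0.951), Socs3 (0.947) and Slc11a1 (0.946). Over the 14 sdCAM libraries and 13827 genes, Mfge8 was followed by Pcp4l1 (0.983), Dusp14 (0.982) and Fam107a (0.979), Pros1 by Rfc3 (0.925), Atp8a1 (0.906) and Snx18 (0.905), and Fcgr3 by Snx5 (0.978), the lysosomal protease Lgmn (0.966) and Bin2 (0.961).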

How the data were processed

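Bulk RNA-seq counts of 32 libraries from 8 mice were used. The authors sequenced 50-cycle single reads, demultiplexed with bcl2fastq 2.20, aligned with STAR 2.7.11a, counted on genes with featureCounts 2.0.8 and deposited raw counts without normalization, with DESeq2 1.46.0 for their own tests. RNA of sorted cells was amplified, which can add noise and favour abundant transcripts, and amplification of tissue RNA is not stated. The genome build of the counts was not settled, so coordinates are given only for RefSeq promoters.

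Genes whose counts summed to 8 or more (tissue) or 7 or more (sdCAMs) were fitted per table with edgeR 4.0.16 (quasi-likelihood test, TMM, 4 groups of treatment and hemisphere), and the joined tables for compartments, with adjustment over all genes and no fold threshold. All 16 tissue and 14 of 16 sdCAM libraries were used. The labels name a single batch. No replicate was a copy of another by a chi-square comparison of counts. The replicate block treated both hemispheres of a mouse as a pair, since they come from one animal. Deviations from group means correlated within mice (median r 0.433 over 8 tissue pairs, 0.153 over 6 sdCAM pairs) more than between mice (-0.0758 and -0.0248). For the block in treatment comparisons limma 3.58.1 (voom, duplicateCorrelation) was used.

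Alternatives were DESeq2 1.42.0, its size factors, no filter, filterByExpr, a log2 fold change beyond 0.59, the block, all 16 sdCAM libraries, the hemispheres of A3 exchanged, each mouse left out, and scaling to identity genes. Named genes were the 10 members, the called genes of 2 pathway lists of 35 and 29 genes, and for the 3 members with the smallest p in each table the 3 most correlated genes of at least 1 CPM. The members and lists were chosen with earlier results of these data known. Some called genes of the lists are not reported here. The main edgeR fit was tested on simulated data for the average hemisphere difference in each table, with changes placed in well-counted genes only. The treatment comparisons, the fit of compartments and the alternatives were not tested in this way.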

Additional observations from a re-analysis of the deposited data

Results flagged for a closer look

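Of 60 groups of 4 libraries checked for a library far from the others, 2 held one. The criterion (Dixon's 95% critical value) is met by chance in about 1 in 20 groups, so 2 of 60 is no more than chance gives. Mertk in contralateral tissue of CTL mouse B1 was at 43.6 CPM, against 59.1 to 61.2 CPM in the other 3 mice. Gas6 in ipsilateral tissue of BLZ945 mouse C2 was at 153 CPM, against 110 to 115 CPM in the other 3.

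The ipsilateral sdCAM library of C2, left out for its degraded RNA, held Fcgr3 at 5204 CPM (287 of 55155 counts, exact Poisson 95% interval 4619 to 5842 CPM for counting error only), above the highest contralateral BLZ945 library at 1719 CPM.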

How the results depend on the processing

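Over 82 fold changes of members and 1197 alternative values, 1062 kept direction and call, 63 lost the call, 31 gained it and 41 changed sign, of which 9 when 1 mouse was left out and 28 under scaling to the sdCAM identity genes, which follow from its shift of all genes.

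Scaled to the identity genes, the sdCAM values that changed sign were, in CTL mice, Axl (-0.68), Mertk (-0.40), Gas6 (-0.31), Pros1 (-0.21), Fcgr1 (-0.23), Fcgr3 (-0.32) and Fcer1g (-0.30), in BLZ945 mice Axl (-0.61), Mertk (-0.54), Gas6 (-0.78), Pros1 (-0.49), Fcgr1 (-0.82), Fcgr3 (-0.61), Fcgr4 (-0.88), Fcgr2b (-0.57) and Fcer1g (-0.82), and in the average Axl (-0.64), Mertk (-0.47), Gas6 (-0.54), Pros1 (-0.35), Fcgr1 (-0.53), Fcgr3 (-0.46), Fcgr4 (-0.013), Fcgr2b (-0.27) and Fcer1g (-0.56). Of the treatment comparisons, Fcgr3 in the interaction (-0.29), Fcgr3 ipsilaterally (0.0057) and Fcgr3 contralaterally (0.30) changed sign. Mfge8 was then the 1 member called in CTL mice, in BLZ945 mice and in the average. With all 16 sdCAM libraries Axl (-0.25) and Mertk (-0.0074) changed sign in CTL mice, as did Fcgr3 between treatments ipsilaterally (0.33), and 0, 1 and 1 members were called in CTL mice, BLZ945 mice and the average. With A3 exchanged 0 members were called in tissue in each of these 3 comparisons, and the interaction of Fcgr4 became 1.18.

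DESeq2 called 4 members in CTL and 6 in BLZ945 tissue, 5 in BLZ945 sdCAMs, and 1 between the treatments in ipsilateral and 1 in contralateral sdCAMs. The replicate block gave 6 members in CTL and 8 in BLZ945 tissue and 1 in CTL sdCAMs. It changed no other call of a member than those given in the report. Among all genes, it called 216 higher and 34 lower in CTL tissue (92 and 1 without it), 510 and 275 in BLZ945 tissue (239 and 19), 771 and 573 in the tissue average (480 and 98), 23 and 270 in CTL sdCAMs (78 and 432) and 640 and 1291 in the sdCAM average (912 and 2054). DESeq2 called 157 and 5, 403 and 76, and 646 and 240 in the tissue hemisphere comparisons, 0 and 1 between treatments in ipsilateral tissue (0 by edgeR), 321 and 1502 in CTL and 514 and 2004 in BLZ945 sdCAMs (220 and 807 by edgeR), and 12 and 36, 38 and 90, and 35 and 9 for the sdCAM interaction and the ipsilateral and contralateral treatment comparisons (0 by edgeR, and 7 and 4 in the last with the block). All 16 sdCAM libraries gave 3 and 202, 4 and 424, and 84 and 1102, the identity genes 0 and 752, 0 and 3878, and 11 and 7504, and A3 exchanged 0, 6 and 1 genes in the tissue comparisons.

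Leaving out each mouse in turn gave 0 to 2 members in CTL and 0 to 3 in BLZ945 tissue, 5 to 7 in the tissue average, 0 to 2 in CTL and 1 to 3 in BLZ945 sdCAMs, 4 to 7 in the sdCAM average, 10 for sdCAMs against tissue and 0 between treatments. Signs changed for tissue Axl (CTL -0.15 to 0.049, BLZ945 -0.10 to 0.014, average -0.091 to 0.0072), tissue Gas6 (BLZ945 -0.036 to 0.085, average -0.060 to 0.016) and, between treatments in ipsilateral sdCAMs, Fcgr3 (-0.20 to 0.014) and Fcgr4 (-0.054 to 0.95). Among all genes, 24 to 96 were then called in CTL tissue, 81 to 261 in BLZ945 tissue, 319 to 564 in the tissue average, 139 to 612 in CTL sdCAMs, 270 to 1220 in BLZ945 sdCAMs and 1855 to 2612 in the sdCAM average. The cause of these changes was not tested. Fcgr4 had 0 to 38 counts per tissue library.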

Other observations

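In the other degraded library, ipsilateral sdCAMs of A3, 11 of 54055 counts fell on Fcgr3 (203 CPM, exact Poisson 95% interval 102 to 364), 34 on Fcer1g (629 CPM, 436 to 879), 1 each on Pros1 and Mfge8, and 0 on the other 6 members, which allows up to 68.2 CPM. In degraded C2, Fcer1g had 26 counts (471 CPM, 308 to 691), Fcgr1 16 (290 CPM, 166 to 471) and Fcgr2b 14 (254 CPM, 139 to 426), while Fcgr4 had 0, which allows up to 66.9 CPM. The libraries of degraded RNA thus gave Fcgr3 at 203 and 5204 CPM.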
